A study of Homo sapiens with 34 samples.

Results

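The label content of mRNA at the end of a 24 h pulse with 4-thiouridine (s4U) was measured in 8 of the 34 SLAM-seq libraries of the series, namely those collected at 0 min of chase and those that received no label. They were chosen by their sample titles and not by any measured value. The host was hTERT-RPE1, human epithelial cells of the retinal pigment layer immortalised with telomerase. It carried a doxycycline-induced shRNA aimed at the CCND1 3′ UTR (the knockdown line, whose cells are large in the study's account) or the same shRNA together with an inducible FLAG-CCND1 allele that it spares (the overexpression line, whose cells are small). Both lines were made with lentiviral vectors and sorted, were polyclonal for CCND1 expression, and were held in 0.5 µg/mL doxycycline throughout, so that every library carries the induced shRNA. From day 4 of induction the labelled cells received 10 µM s4U, with fresh medium every 3 h, and the unlabelled cells received 10 µM uridine instead. Each line gave 2 libraries at 0 min and 2 without label, and the labels do not say whether replicates came from separate cultures, so that the spread between them may be technical.

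s4U is taken up as a nucleoside, phosphorylated by the pyrimidine salvage pathway and built into new transcripts in place of uridine. Alkylation then makes it read as C, so that T>C conversions mark RNA made during the pulse. A short-lived mRNA is wholly replaced during a long pulse and comes to the label content of the nucleotide pool, whereas a long-lived mRNA still contains copies made before the pulse, and growth of the cell population adds new copies to either. Messages of ribosomal proteins, glycolysis and the respiratory chain are textbook examples of long-lived mRNAs, and those of immediate early genes and cytokines of short-lived ones.

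The 0 min libraries held 29490469 to 44480703 reads in annotated 3′ UTR intervals and the unlabelled ones 14712332 to 36046706. The lowest of these, the unlabelled library of overexpression replicate 1, also covered fewer T bases per read (20.7, against 24.3 to 26.3 in the other 7). Reads carried no molecular identifiers, so that binomial intervals cover counting error only. CCND1 (3′ UTR reads) was at 105 and 110 CPM (reads scaled to the mapped total of the library) in the knockdown 0 min libraries and at 34.1 and 31.1 CPM in the overexpression ones, and in the unlabelled libraries at 58.2 and 113 CPM and at 42.7 and 41.1 CPM. These reads check neither label, since the shRNA acts in both lines and the added allele need not carry this 3′ UTR. Of 12 markers of retinal pigment epithelium 1, MITF, reached 1 CPM in all 4 labelled libraries. OTX2 was at 0.538 to 3.06 CPM, RPE65 was at most 0.0215 CPM, TYR, TTR and SERPINF1 were at 0, and RDH5 had no value. The labelled cell type therefore rests here on the line's name. Simple epithelial markers summed to 415 to 797 CPM, nearly all of it from KRT8 and KRT18. Of these 6 markers 3 reached 1 CPM in all 4 labelled libraries, and KRT19 and CDH1 were at 0. Mesenchymal markers summed to 6919 to 9966 CPM, mostly from VIM and FN1. Of these 8 markers 6 reached 1 CPM, and COL1A2 was at most 0.538 CPM. Blood cell markers summed to at most 0.147 CPM.

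The overall label content was lower in the knockdown line. After subtraction of the unlabelled library of the same line and replicate number, the T>C rate over all retained 3′ UTR reads (conversions per covered T base) was 0.890% and 0.840% in the knockdown libraries and 0.957% and 0.923% in the overexpression libraries, that is 0.865% ± 0.0355 against 0.940% ± 0.0241 (SD, n = 2 each). The share of reads with at least 1 conversion was 19.7% and 18.1% against 21.2% and 19.9%. Both knockdown rates were below both overexpression rates, and the 2 rates of a line differed by less than the means of the lines did.

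With genes weighted equally the order was the same. The median gene had a T>C rate of 0.880% and 0.860% in the knockdown libraries and 0.928% and 0.922% in the overexpression libraries, so that the knockdown median was 94.1% of the overexpression median. The median gene's share of converted reads was 20.3% and 19.5% against 21.3% and 20.8%. The exact two-sided permutation test over the 4 libraries gave a p of 0.333 for each of the 4 measures, the smallest that 6 splits allow. The unlabelled libraries had T>C rates of 0.0194% and 0.0296% (knockdown) and 0.0176% and 0.0279% (overexpression), so that the background was a small part of the signal for most genes.

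**Figure D1:**
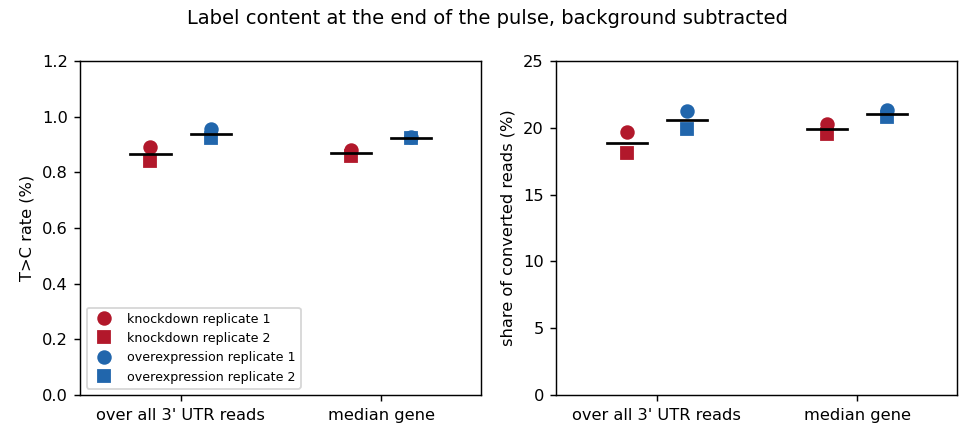
Background-subtracted T>C rate (left, percent of covered T bases) and share of converted reads (right, percent of reads) in each 0 min library, over all 3′ UTR reads and for the median gene. Points are libraries and bars are the means of the 2 libraries of a line. In all 4 measures both knockdown points lie under both overexpression points, with the narrowest gap, 19.7% against 19.9%, in the share over all reads.

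Which genes were under-labelled was asked relative to the median gene of each library. The relative label of a gene is the log2 of its T>C rate over that median, averaged over the 4 libraries, and it was tested against a 1.5-fold margin with edgeR's quasi-likelihood fit of conversion counts (glmTreat, Benjamini-Hochberg adjustment over 6255 genes, threshold 0.05). Of these 6255 genes 20 were called under-labelled (0.32%) and 0 over-labelled. Without adjustment, 250 genes lay below and 2 above that margin at a p under 0.05. With a margin of 1.2-fold 130 genes were called below the median (2.08%) and 34 above it (0.544%). The distribution had its longer tail on the low side, with a 5th percentile of -0.83 and a 95th of 0.36 on the log2 scale.

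Of the 20 genes 15 encode proteins of the cytosolic ribosome (among them RPS3, RPS19, RPS24, RPS27A, RPS28, RPS29, FAU, RPL8, RPL27A, RPL35, RPL36, RPL37A and the stalk proteins RPLP1 and RPLP2). The other 5 were GAPDH, a glycolytic enzyme, LGALS1, a galectin that binds β-galactosides, S100A6, a calcium-binding protein, CFL1, which severs actin filaments, and MYL9, a regulatory light chain of myosin. Their relative label ran from -1.26 to -0.78, with standard errors of 0.05 to 0.15. All 20 were among the 1564 genes of highest coverage, where the standard error of the relative label had a median of 0.08 against 0.28 in the 1564 of lowest coverage, so that a gene of lower coverage needed a larger departure to be called.

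Most of the ribosomal protein genes among them shared a sequence feature that the selection did not use. Messages of this family are known to begin with a 5′ terminal oligopyrimidine tract, a C followed by a run of C and T through which their translation is controlled. Windows of 30 bases around the RefSeq start (GRCh38.p14, 15 bases on either side, transcribed strand) are shown for 5 of these genes and for 2 under-labelled genes without such a run. Capitals mark the longest run of at least 6 C or T that begins with C.
RPLP1: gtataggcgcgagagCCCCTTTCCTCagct
RPLP2: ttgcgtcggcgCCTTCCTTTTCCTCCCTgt
RPS24: cggcgaatcgtggttCTCTTTTCCTCCTTg
RPL35: agccccgcctaCTTCCTCTTTCCCTCggag
FAU: cgccctcgCTTCTTCCTCTTTCTCgactcc
RPS29: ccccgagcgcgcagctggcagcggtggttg
GAPDH: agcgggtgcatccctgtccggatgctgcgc
These windows lie on chr15:69452803-69452832 (RPLP1, plus strand), chr11:809952-809981 (RPLP2, plus), chr10:78033848-78033877 (RPS24, plus), chr9:124861943-124861972 (RPL35, minus), chr11:65122120-65122149 (FAU, minus), chr14:49598696-49598725 (RPS29, minus) and chr12:6535249-6535278 (GAPDH, plus). Such a run was present in 11 of the 13 matched under-labelled ribosomal protein genes and in 1 of the 3 matched other under-labelled genes. It was present in 24 of the 30 matched ribosomal protein genes tested (80%), so that it goes with the family and does not set the under-labelled members apart, and in 24% of all 27305 promoters in the table and 23.6% of the 5153 matched tested genes. No match says only that these letters are not in this window, and a RefSeq start can lie off the start used in these cells.

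The acidic stalk proteins RPLP1 and RPLP2 carry the binding site for elongation factors. RPLP1 (3′ UTR interval on hg38 chromosome 15, 69455508 to 69456194, plus strand) had T>C rates of 0.394% and 0.379% in the knockdown libraries and 0.468% and 0.437% in the overexpression libraries. Its relative label was -1.10 (SE 0.05, edgeR adjusted p of 5.6e-08), the most firmly called of all genes. RPLP2 had 0.308% and 0.353% against 0.503% and 0.435%, with a relative label of -1.19 (SE 0.08, edgeR adjusted p of 8.0e-06). All 8 of these values lie under every library median, and in both genes the knockdown libraries lie under the overexpression ones.

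Among the proteins of the small subunit, RPS19 had the lowest relative label of the 20 (-1.26, SE 0.15), with rates of 0.353% and 0.369% against 0.440% and 0.342%. These values come from the intervals left after one with multimapped reads was dropped, with at least 10767 covered T bases, and the lines overlap. Over all its intervals (24.4% multimapped reads, at least 238187 covered T bases) RPS19 had 0.427% and 0.436% against 0.574% and 0.504%, with no overlap, and a relative label of -0.90 (SE 0.07), which is not the lowest. RPS28 had 0.324% and 0.438% against 0.511% and 0.557%, and RPS24 0.426% and 0.435% against 0.618% and 0.505%. RPS27A, made as a fusion with ubiquitin, had 0.446% and 0.393% against 0.509% and 0.449%. RPS3 had a relative label of -0.87, and RPS29 and FAU, also made as a fusion, of -0.81 and -0.78.

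Among those of the large subunit, RPL36 had 0.296% and 0.383% in the knockdown libraries and 0.481% and 0.455% in the overexpression libraries (relative label of -1.17, SE 0.10). RPL35 had 0.372% and 0.387% against 0.590% and 0.663% (-0.88, SE 0.09), the widest gap between the lines among the 20. RPL37A, RPL27A and RPL8 had relative labels of -0.99, -0.90 and -0.97. The low label thus covered proteins of both subunits.

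The 5 genes outside the ribosome had rates of the same size. GAPDH (chromosome 12, 6538171 to 6538374) had 0.409% and 0.465% in the knockdown libraries and 0.543% and 0.504% in the overexpression libraries, with a relative label of -0.91 (SE 0.05). LGALS1 had 0.432% and 0.430% against 0.530% and 0.524%, and S100A6 0.407% and 0.405% against 0.545% and 0.441%. The contractile and actin-severing proteins followed, with MYL9 at 0.422% and 0.401% against 0.533% and 0.489% and CFL1 at 0.421% and 0.474% against 0.623% and 0.582%. In all 5 the knockdown libraries lay below the overexpression libraries. Over the 20 genes single values ran from 0.296% to 0.663%, and the counting error of a single rate (Wilson 95% interval) was between 0.00754 and 0.0400 percentage points to either side.

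**Figure D2:**
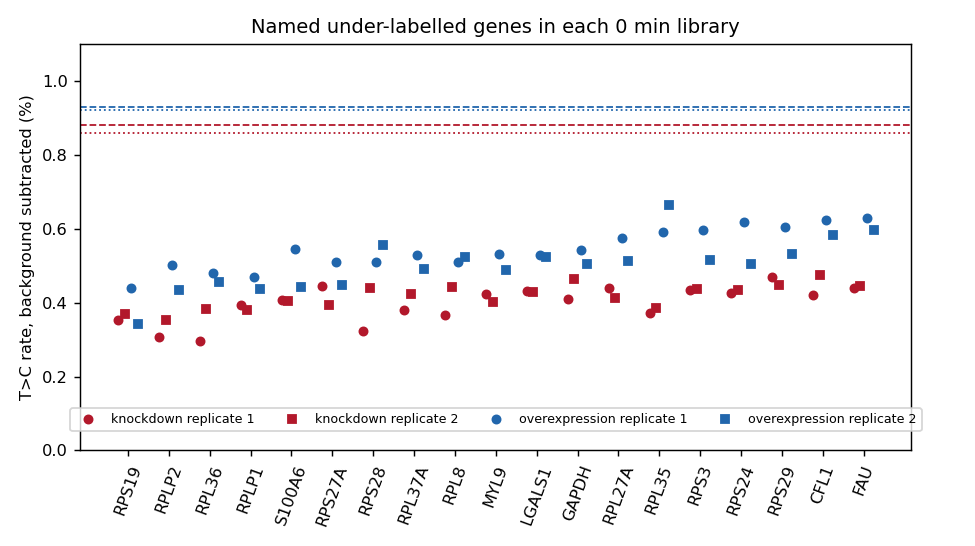
Background-subtracted T>C rate (percent of covered T bases) of the under-labelled genes named in the text in each 0 min library, ordered by relative label. Dashed (replicate 1) and dotted (replicate 2) lines are the library medians in the colour of the line, at 0.860% to 0.928%. All points lie under all medians, and in all genes shown except RPS19 both knockdown points lie under both overexpression points.

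The share of converted reads gave low values for the same 20 genes, from 3.02% (RPL36, knockdown replicate 1) to 14.0% (RPS27A, overexpression replicate 1) against library medians of 19.5% to 21.3%. This share depends on the number of T bases a read covers, which was 15.4 for the median under-labelled gene and 27.0 for the median tested gene, and it is therefore no measure of label across genes. With it 214 genes were called under-labelled and 18 over-labelled, among them all 20. The rate per T base is free of the number of T bases but not of where in the transcript they lie. The under-labelled genes also had short intervals (median 240 bases against 1567), a higher GC content in them (49.4% against 40.4%) and far more reads (median 1178 CPM against 38.3 CPM), and the part of these properties in their low rate was not tested. Of their intervals 40% held the pentamer ATTTA, searched on the transcribed strand, against 79% of all, and 15% held the Pumilio motif TGTANATA against 34.8%. The shorter intervals hold fewer of any word. Per kilobase there were 1.25 ATTTA against 2.40, and 0.239 TGTANATA against 0.25.

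**Figure D3:**
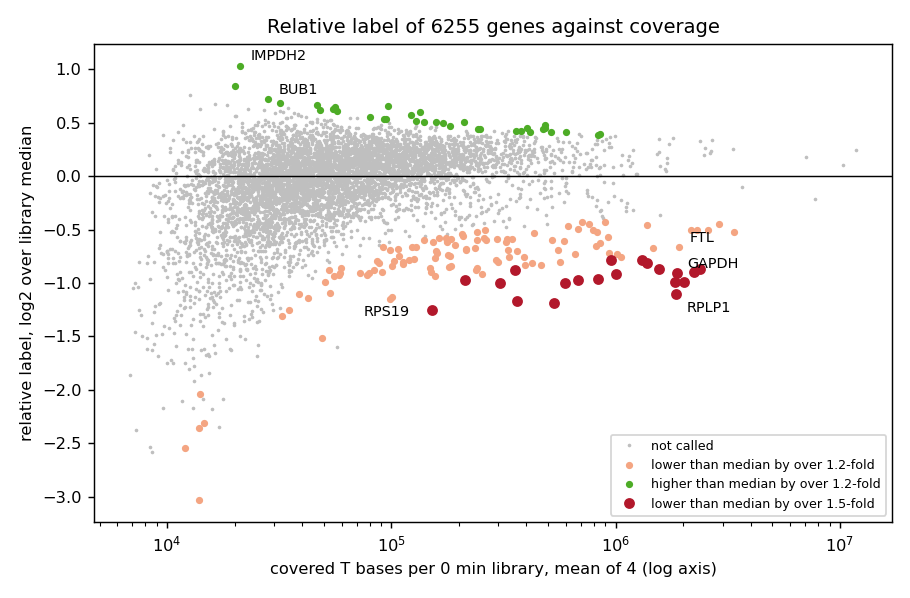
Relative label (log2 of the T>C rate over the library median, mean of 4 libraries) of 6255 genes against the mean number of covered T bases (log axis). Red points are the 20 genes called at 1.5-fold, orange and green points those called at 1.2-fold only, below and above the median. The scatter narrows with coverage, and the median is at -0.23 in the 1564 genes of lowest and at 0.13 in the 1564 of highest coverage.

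The gene lists showed which functions shared a low label. Counts of called members, here and below, are to be read beside the shares of all tested genes. These were 0.32% below at 1.5-fold, 2.08% below at 1.2-fold and 0.544% above at 1.2-fold. A single call in a list is not a result about the list. Of 79 cytosolic ribosomal proteins 37 were tested, and most others were left out because over 10% of the reads of their intervals mapped to several places, as is known for genes with many processed pseudogenes. The 37 had a median relative label of -0.73 (median of all tested genes 0.00), 15 were called at 1.5-fold, 29 at 1.2-fold, and 36 lay below the library median. The exception was RPL5, a protein of the large subunit that also binds MDM2, at 0.13. With multimapped intervals kept, 77 members were tested, with a median of -0.66 and 24 called at 1.5-fold. RPS12, from the fixed set of names, had rates of 0.526% and 0.539% against 0.852% and 0.653% and was called at 1.2-fold (relative label of -0.50, edgeR adjusted p of 0.043).

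Other lists of protein synthesis had medians near that of all genes. The 61 tested mitochondrial ribosomal proteins, which work in the same process inside the mitochondrion, had a median of 0.04 and 0 calls at either margin, from MRPL24 at -0.58 to MRPL44 at 0.51. The 27 factors of ribosome biogenesis had a median of 0.10 (UTP15 -0.57, NOP10 0.41) and 0 calls. Of 22 translation factors, with a median of 0.08, EEF1B2 and the elongation factor subunit EEF1D (-0.74, SE 0.11) were called below at 1.2-fold, and EIF5 was the highest at 0.35. EIF1, which selects the start codon, was at 0.09. EEF1A1 itself was not tested, with 99.1% multimapped reads.

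Energy metabolism was low as well. Of 63 nuclear-encoded subunits of oxidative phosphorylation, 15 were called below the median at 1.2-fold (2.08% of all genes) and 1 above it, with a list median of -0.31. Those called below included UQCR11 of complex III at -0.94, NDUFA13 of complex I at -0.99, ATP5MC1, the c ring of ATP synthase, at -0.60 and COX8A of cytochrome oxidase at -0.53. NDUFV2, a core subunit of complex I, was called above at 0.63, and the lowest member, NDUFS7 (-1.21, SE 0.38), was not called. Of 12 glycolytic enzymes 5 were called below at 1.2-fold, GAPDH, PKM (-0.76), TPI1 (-0.69), ENO1 (-0.51) and GPI, and the highest was HK1 at 0.18, with a list median of -0.37.

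Lysosomal and secretory genes were split. Of 29 lysosomal genes 6 were called below at 1.2-fold (list median -0.35). They were the aspartic protease CTSD (-0.85), the cysteine protease CTSB, the granulin precursor GRN (-0.85), the saposin precursor PSAP (-0.63), the tetraspanin CD63 (-0.51) and ATP6AP2. CTSL, a cysteine protease related to CTSB, was at 0.44, and the lowest value, ARSB at -1.28, had an SE of 0.48 and was not called. Of 19 chaperones of the endoplasmic reticulum P4HB and PPIB were called below (median -0.15, DNAJB9 -0.70 to XBP1 0.26). The 19 matrix genes had a median of 0.00 with 1 called below, TGFBI, and ran from NID1 at -0.48 to THBS1 at 0.37. FN1 was at -0.10 (SE 0.03), with rates of 0.823% and 0.773% against 0.861% and 0.886%, and COL1A1, at 18.5 CPM, had rates of 0.175%, 0.845%, 1.70% and 1.39% that allow no statement.

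In the cytoskeleton list calls fell on the low side only. Of 32 tubulins, actins and actin-binding proteins CFL1, MYL9, the myosin light chain MYL6 (-0.51) and the actin monomer binder TMSB10 (-0.44) were called below at 1.2-fold, while the list median was 0.07 and TUBB2A was at 0.34. TUBA1B was at -0.21 (SE 0.03), RHOA at -0.24 (SE 0.05) and VIM, the intermediate filament protein of mesenchymal cells, at 0.18 (SE 0.03), none of them called. ACTB was not tested, with 42.3% multimapped reads. Of 13 annexins, S100 proteins and galectins LGALS1, S100A6 and S100A11 were called below (median -0.34), and ANXA7 was the highest at 0.33. The iron storage chains FTL (-0.66, SE 0.05) and FTH1 (-0.62, SE 0.26) were close to each other in value, and FTL was called at 1.2-fold. The FTH1 value rests on a remnant of 39.2 CPM, since 80.8% of the reads of the gene were multimapped, and over all its intervals FTH1 had 0.509% and 0.474% against 0.680% and 0.640% (relative label of -0.66, SE 0.04). RAB7A, a GTPase of late endosomes, was at 0.37.

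Genes of cell division differed by list. The 41 tested replication and G1/S genes had a median of 0.00 with 21 below the library median, from CDT1 at -0.43 to RFC4 at 0.46, with RRM1, the large subunit of ribonucleotide reductase, called above at 1.2-fold (0.42). The 38 mitotic genes had a median of 0.21, with 7 below the library median and 3 called above at 1.2-fold (0.544% of all genes), the kinetochore kinase BUB1 (0.72), the kinetochore motor CENPE (0.66) and the cytokinesis protein ANLN (0.45). SGO1, which protects cohesion, was the lowest at -0.68 and not called. BUB1 had rates of 1.63% and 1.08% in the knockdown libraries and 1.28% and 1.94% in the overexpression libraries, all over the medians but with no order between the lines. Of the histone list HIST1H4C alone was tested (-0.47, SE 0.30); replication-dependent histone messages are known to lack a poly(A) tail.

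The lists of immediate early genes, cytokines, p53 targets, ATF4 targets and sterol synthesis had medians near or above that of all tested genes. None of their members was called at either margin. The 34 immediate early genes had a median of 0.11, from the phosphatase DUSP4 at -1.08 (SE 0.39) to CYR61 at 0.35 (SE 0.03). From the fixed set of names, MYC was at 0.33 (SE 0.16), IER3 at 0.19 (SE 0.08) and KLF6 at 0.31 (SE 0.07). The 4 tested cytokines had a median of 0.28, from IL11 at 0.10 to CXCL8 at 0.40. The 12 p53 targets had a median of 0.13 (RRM2B -0.57, PLK3 0.42), the 13 ATF4 targets of -0.02 (SESN2 -0.40, STC2 0.33) and the 18 genes of sterol synthesis of 0.13 (lowest SQLE, -0.37). CCND1 itself was at -0.35 (SE 0.15), with rates of 0.694% and 0.741% against 0.607% and 0.774%, and CPA4, a carboxypeptidase, at 0.01. E2F2 and PLAT were below the coverage minimum.

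The interferon list departed from the other regulated genes, with a median of -0.52 over 14 tested members and 6 called below at 1.2-fold. They were the membrane proteins IFITM3 (-0.86) and IFITM2, and B2M (-0.46) and 3 heavy chains of class I antigen presentation. EIF2AK2, a kinase activated by double-stranded RNA, was the highest at 0.32. The 29 members of the mRNA decay machinery had a median of 0.06, with the decay factor LSM1 called above (0.51) and EXOSC2 the lowest at -0.74. The 26 proteasome subunits had a median of 0.09 and 0 calls (PSMC5 -0.44, PSMD6 0.42), and the 9 genes of pyrimidine uptake and salvage had -0.12 and 0 calls (NME4 -0.58, UCK2 0.34).

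**Figure D4:**
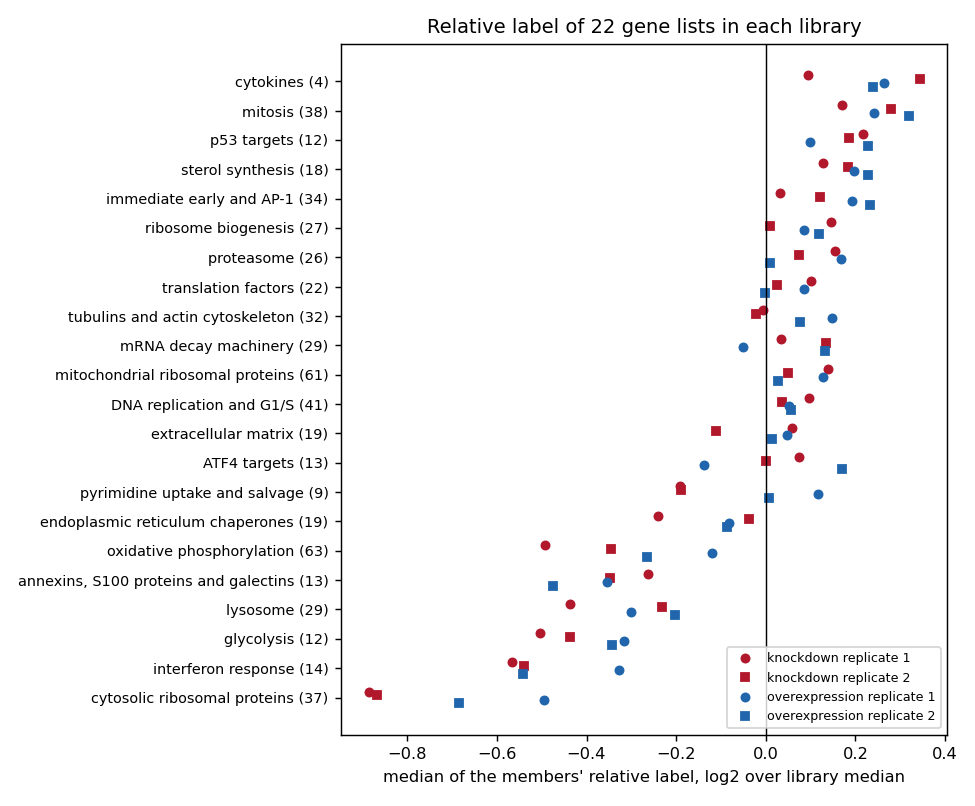
Median relative label (log2 over the library median) of the tested members of 22 gene lists, in each 0 min library; the number of tested members is in brackets. Ribosomal proteins lie lowest, at -0.89 and -0.87 in the knockdown libraries and -0.49 and -0.68 in the overexpression libraries, and the order of the lists near the top differs between libraries.

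The genes called above the median at 1.2-fold were mostly outside the lists, 28 of 34. By value the highest, chosen after the values were seen, was IMPDH2, the rate-limiting enzyme of guanine nucleotide synthesis, with rates of 1.75% and 2.28% in the knockdown libraries and 1.26% and 2.06% in the overexpression libraries (relative label of 1.03, SE 0.15). Its interval is 58 bases long (chromosome 3, 49024325 to 49024382, minus strand), at 28.2 CPM. UBE2T, a ubiquitin-conjugating enzyme of DNA repair, varied less between libraries, with 1.46% and 1.35% against 1.37% and 1.49% (0.66, SE 0.08). SPG21 and FUBP1 were at 0.60 and 0.57. Other called genes, such as DDX19B (0.84), lay between these by value. The lines overlapped in IMPDH2 and UBE2T, while in SPG21 (1.25% and 1.23% against 1.31% and 1.66%) and FUBP1 (1.17% and 1.26% against 1.59% and 1.34%) the knockdown values were the lower.

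The difference between the lines was tested gene by gene on the relative label, so that the lower overall label of the knockdown line is taken out. No gene passed the threshold in either direction (edgeR quasi-likelihood test, 0 of 6255, 0%). The lowest adjusted p was 0.158. Without adjustment, 258 genes were lower in the knockdown (4.12%) and 147 higher (2.35%) at a p under 0.05. With the overall rate of each library as the reference in place of the median gene, these were 209 and 188, so that the imbalance depends on the scaling. With limma on log2 rates 167 and 180 genes were below that p and again 0 passed after adjustment, whereas DESeq2 with the same offsets called 14 genes, all lower in the knockdown.

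The under-labelled genes lay to 1 side in this comparison. The fitted difference (log2 of knockdown over overexpression) was below 0 in 20 of the 20, against 51.5% of all tested genes. It ran from -0.64 (RPL35) to -0.02 (RPS19), with a median of -0.26 beside -0.01 for all tested genes. With the overall rate as the reference RPS19 turned to 0.01 and the other 19 stayed below 0. At an unadjusted p under 0.05, 11 of the 20 were lower in the knockdown and 0 higher (4.12% and 2.35% of all tested genes). Before scaling, the rates of the lines did not overlap in 19 of the 20, with the knockdown lower, as in 27% of all tested genes. None of the 20 passed the edgeR test on all 4 libraries without a block. DESeq2 called RPL35 (adjusted p of 0.0135) and FAU (adjusted p of 0.0254), and edgeR with the replicate number as a block called RPS28 (-0.41, adjusted p of 0.0119), all lower in the knockdown. The difference of RPS28 was -0.65 without knockdown replicate 2 and -0.46 without overexpression replicate 1. That of RPS24 was -0.43 without overexpression replicate 2. Each of these fits left 1 library in a line, and the library left out was the one closer to the other line, so that they add no support. The relative label of the 20 genes had a median of -1.11 and -1.01 in the knockdown libraries and -0.80 and -0.87 in the overexpression libraries. Both knockdown medians were thus the lower.

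The same held for the wider set. Of the 130 genes called below the median at 1.2-fold, 116 had a fitted difference below 0 (51.5% of all tested genes), with a median of -0.23. At an unadjusted p under 0.05, 42 were lower and 3 higher in the knockdown (4.12% and 2.35% of all tested genes). Of the 34 called above the median, 14 were below 0, with a median of 0.05. By list, the ribosomal proteins had a median difference of -0.26 with 37 of 37 below 0 and 19 at an unadjusted p under 0.05. Oxidative phosphorylation had -0.19 (51 of 63 below 0), glycolysis -0.20 (10 of 12), and pyrimidine uptake and salvage -0.30 (7 of 9). At that p 8, 5 and 1 members of these lists were lower in the knockdown and 0 higher. Genes share the same libraries and scaling, so that such counts are not replicates of the comparison. Mitochondrial ribosomal proteins had -0.05, DNA replication 0.04, mitosis -0.05, immediate early genes -0.06, cytokines 0.03 and p53 targets 0.13. Across the 2782 genes with at least 20000 covered T bases in all 8 libraries, the relative label and the line difference had a Spearman rho of 0.199, as a description across genes that share libraries.

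The genes with the smallest p of the line test were chosen after their values were seen. SRGN, the core protein of serglycin proteoglycan (chromosome 10, 69104121 to 69104811), had rates of 0.755% and 0.804% in the knockdown libraries and 1.13% and 1.07% in the overexpression libraries. Its difference was -0.41 (SE 0.08, edgeR adjusted p of 0.158). TMEM123, a membrane glycoprotein, had 0.770% and 0.728% against 1.28% and 1.2%, a difference of -0.64 (SE 0.14, edgeR adjusted p of 0.217). Neither was under-labelled, with relative labels of 0.04 and 0.10, and their rates in the knockdown lay below the library medians and in the overexpression line above them.

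TALDO1, an enzyme of the pentose phosphate pathway, had 0.503% and 0.526% against 0.975% and 0.712%, a difference of -0.62. TMSB10 had 0.559% and 0.585% against 0.786% and 0.733%, and TPT1, whose message is known to carry a terminal oligopyrimidine tract, 0.532% and 0.559% against 0.753% and 0.683%, with differences of -0.32 and -0.31. Read abundance differed among these 5, with a log2 difference at 0 min of 0.00 for SRGN, -0.99 for TMEM123 (edgeR adjusted p of 1.9e-04), -0.11 for TALDO1, -0.47 for TMSB10 and -0.26 for TPT1. DESeq2, the absolute rates without scaling and the fit with the replicate number as a block each called these 5.

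Abundance at 0 min did differ between the lines, in 924 genes lower in the knockdown (7.83% of 11805) and 946 higher (8.01%). Of the 20 under-labelled genes 1 was called, MYL9, higher in the knockdown (0.73, edgeR adjusted p of 0.0056), and the 15 ribosomal protein genes had a median difference of -0.19 with 0 called. The matrix genes, with a median abundance difference of 0.99, and the mitotic genes, with -0.99, had median line differences in label of -0.04 and -0.05. CPA4, 3.97 higher in the knockdown on the log2 scale (edgeR adjusted p of 3.9e-10), had rates of 0.942% and 0.815% against 0.943% and 0.906%. FN1 was higher by 1.74 in abundance and differed by -0.04 (SE 0.06) in relative label.

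The chase libraries, which did not enter the values above, gave a readout of the label kept by the same genes. The T>C rate at 720 min of chase over that at 180 min was 0.914 and 0.836 for the median of the 20 under-labelled genes in the knockdown courses, and 0.655 and 0.752 in those of the overexpression line. The median over all tested genes was 0.126 and 0.123 against 0.0183 and 0.0738. Among the genes with at least 20000 covered T bases it was 0.170 and 0.173 against 0.0573 and 0.107. The 720 min library of overexpression replicate 1 covered fewer T bases per read (21.2, against 24.3 to 25.5 in the other chase libraries used). The low values of its course are therefore to be read with care. In each of the 4 courses all 20 genes lay above the median of all tested genes. RPLP1 kept 0.901, 0.865, 0.768 and 0.838 of its rate, and GAPDH 0.898, 0.775, 0.590 and 0.741. RPS19, in its remaining intervals, was scattered at 0.854, 0.345, 0.0850 and 0.764. In the course of knockdown replicate 1 some of the 20 exceeded 1, such as RPS27A (1.13), RPL36 (1.12) and RPLP2 (1.11). Their median at 360 min over 180 min there was 1.01. In the other courses all ratios at 720 min were below 1. A ratio above 1 cannot be loss of label, so that these ratios are no pure measure of turnover. The called genes with the least label after the pulse thus kept more of it in the chase than the median gene, in every course.

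The relation lay in the tail of low label. The 2782 genes with at least 20000 covered T bases were split by relative label into 5 groups of 556 or 557 genes, and group 1, the lowest (median of -0.30), kept 0.511, 0.444, 0.201 and 0.350 of its rate in the courses of knockdown replicates 1 and 2 and overexpression replicates 1 and 2. Group 2 (-0.02) kept 0.153, 0.150, 0.0436 and 0.0948, and group 5 (0.32) kept 0.147, 0.154, 0.0437 and 0.0838. From group 2 to group 5 the values hardly moved. The share of genes with a lower relative label in the knockdown was 67.3% in group 1, 57.7% in group 2, 48.9% and 49.8% in groups 3 and 4 and 46.1% in group 5. It was 54.0% in the 2782 genes together and 51.5% in all tested genes. Of the lists, ribosomal proteins kept 0.880, 0.797, 0.610 and 0.680, oxidative phosphorylation 0.757, 0.663, 0.367 and 0.516, and mitotic genes 0.0335, 0.0506, 0.00705 and 0.0231. Not every list followed its label in this way. The cytoskeleton list (median relative label of 0.07) kept 0.541, 0.481, 0.304 and 0.383. The proteasome list (0.09) kept 0.383, 0.415, 0.177 and 0.358. Both lay above the median tested gene in every course without a low label.

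**Figure D5:**
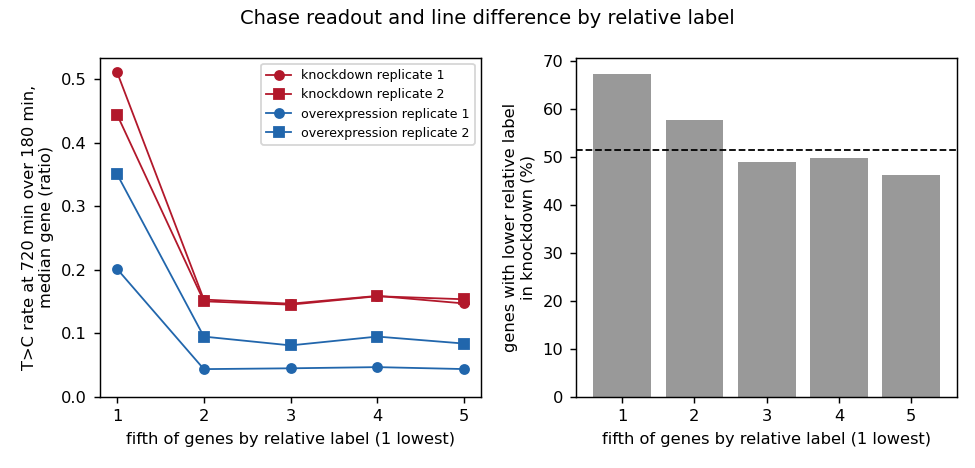
Genes with at least 20000 covered T bases in 5 groups of equal size by relative label, 1 being the lowest. Left, the median ratio of the T>C rate at 720 min to that at 180 min in each course, which is 0.201 to 0.511 in group 1 and at most 0.159 in the others. Right, the percentage of genes whose relative label was lower in the knockdown line, with the 51.5% of all tested genes as a dashed line.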

How the data were processed

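SLAM-seq 3′ end libraries were read for 100 nt from 75 ng of RNA. The deposited counts (reads, reads with a T>C conversion, covered T bases, conversions and multimapped reads) were made by the authors with SLAMdunk 0.4.3 on hg38, by strand, over 71668 3′ UTR intervals of an annotation release not given in the sources used here. The authors' CPM per library and the T>C rate as a fraction were deposited beside them, the former used to recover each library's mapped total and the latter only to check the counts. Intervals naming several genes (1168) and 5068 with over 10% multimapped reads were left out, and the rest summed per symbol. Only the 0 min and no-label libraries entered the tests, and the 180, 360, 720 and 1440 min libraries were described. The other libraries were not used here.

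Genes needed 5000 covered T bases in each of the 8 libraries and 1 CPM in each 0 min library. The expected background conversions, from the no-label library of the same line and replicate number, were subtracted and the result rounded. edgeR 4.0.16 (estimateDisp, glmQLFit) was fitted with an offset of log covered T bases times the library's median gene rate, with the line coded as -0.5 and 0.5, the intercept tested by glmTreat and the line by glmQLFTest. The fit was tested on simulated data. Abundance was tested by edgeR's quasi-likelihood test with TMM and filterByExpr, on read counts that, unlike those of the label, kept the multimapped intervals. limma 3.58.1 and DESeq2 1.42.0 served as alternatives, with others on background, filters, scaling, readout, margin and replicates. 

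Named genes were the 15 called genes of lowest relative label, the lowest and highest tested member of each list, and a fixed set of names. The other genes named, among them the remaining 5 called and the list members called at 1.2-fold, were chosen after their values were seen. The members and lists were chosen with earlier results of these data known. Sequences came from RefSeq (GRCh38.p14) and hg38, and all 16 windows were identical to the genome. P-values measure the spread between libraries, which in edgeR's label fit is largely borrowed across genes (prior degrees of freedom of 23.4). Some genes that the rule for names covers are not reported here.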

Additional observations from a re-analysis of the deposited data

How the results depend on the processing

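The lower overall label of the knockdown line kept its direction under every alternative tried, with a difference without single libraries of -0.0996 to -0.0493 percentage points for the overall rate, -0.0652 to -0.0447 for the median gene rate, -2.47 to -0.891 for the overall share and -1.54 to -0.745 for the median gene share. The number of under-labelled genes, 20, was 36 with a minimum of 20000 covered T bases, 6 with no minimum (10629 genes tested), 33 with multimapped intervals kept, 214 by share of converted reads, 130 and 0 at margins of 1.2-fold and 2-fold, 0 by limma on log2 rates (91 at an unadjusted p under 0.05) and 19 to 36 without single libraries (36 without knockdown replicate 2). Of the 20 genes, 15 to 18 were among those called without single libraries. The number over-labelled, 0, was 1 with no minimum, 18 by share, 34 at 1.2-fold and 0 without any single library. A readout and a background were added after seeing the data. Converted reads per covered T base called 16 genes below and 21 above and turned RPLP2 (0.10), RPS27A (2.09) and RPS12 (1.06), since reads whose conversion lies outside the interval are counted there (0.47 and 0.13 conversions in the interval per converted read of RPLP2 and RPS27A). Background from replicate 2 alone called 21.

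The number of line differences, 0, was 10 with no minimum, 4 by share, 4 by converted reads per covered T base, 14 by DESeq2, 5 on absolute rates, and 3 to 30 without single libraries (3, 30, 10 and 23 without knockdown 1, knockdown 2, overexpression 1 and overexpression 2), so that a line with 1 library was assumed to vary like the other. With the replicate number as a block there were 30 under-labelled genes and 7 line differences, 6 of them lower in the knockdown. Same-numbered libraries did not deviate together (r of 0.0066 across genes), and nothing in the labels pairs them. Abundance calls, 1870, were 1346 to 1958 without single libraries, 2712 with the block, 2208 by DESeq2 and 2198 without a filter. The label kept in the chase by the 20 genes, 0.789 of the 180 min rate at 720 min as a mean over courses, was 0.970 at 360 min, 0.484 at 1440 min and 0.834 without overexpression replicate 1. Depth limits the rest, since the standard error of a line difference had a median of 0.55 in the 1564 genes of lowest coverage and 0.17 in the 1564 of highest.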

Other observations

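Values below those of the 20 genes occurred at low coverage. Of the 130 genes called below the median at 1.2-fold, TRHDE, a peptidase of thyrotropin-releasing hormone, had the lowest relative label (-3.03, SE 0.74), with rates of 0.0927% and 0.390% for knockdown and 0.0605% and 0.0378% for overexpression, at a mean of 13810 covered T bases. OTULIN, METTL21A, GZF1 and TMEM56, at 11965 to 14567 covered T bases, lay between -2.54 and -2.04. The 1564 genes of lowest coverage had a median relative label of -0.23 and a median dispersion of 0.133, against 0.13 and 0.0162 in the 1564 of highest coverage.

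Without a coverage minimum TXNIP, which binds thioredoxin and responds to glucose, was called as differing between the lines (log2 of 2.76, SE 0.49, edgeR adjusted p of 1.3e-04). Its rates before background subtraction were 1.32% and 0.946% for knockdown and 0.131% and 0.238% for overexpression. It was at 29.9 and 20.4 CPM against 6.69 and 4.72 CPM, and the unlabelled library of overexpression replicate 1 covered 0 of its T bases, which kept it out of the tested genes. This gene was chosen after its values were seen.

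TIMM10, an import chaperone of mitochondria, lay well above most genes in background, with T>C rates in the unlabelled libraries of 0.285% and 0.462% (knockdown) and 0.465% and 0.658% (overexpression).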
